A study of Mus musculus with 2 samples.

Results

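The 2-cell-like state is a short-lived condition that a few cells of a mouse embryonic stem (ES) cell culture enter and leave, and in which genes of the 2-cell embryo are transcribed. Dux, a double homeobox factor, switches many of these genes on, and heterochromatin and chromatin assembly factors keep them silent in the other cells of the culture. Baf53a, an actin-related protein, is a subunit of the BAF remodelling complex and also of the TIP60-p400 complex, whose loss is known to release 2-cell genes in ES cells. Zscan4c, Zscan4d, Zscan4f, Tcstv1, Tcstv3, Zfp352, Tmem92 and Sp110, 8 genes in common use as markers of the state, were examined here. Their probes were found through the RefSeq accession that the array files give for each probe. This gave 12 probes of 7 genes, out of 39411 gene probes usable on both arrays and 20823 genes named in this way. Zscan4d had no probe under this rule and has no value of its own. The gene table also lists Zscan4d as a synonym of Zscan4c, so a value of Zscan4c may stand for what has been called Zscan4d elsewhere.

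RNA came from Baf53a conditional knockout (cKO) ES cells, 1 clone derived from E14 ES cells in which both alleles of Baf53a are disrupted and a nuclease-resistant Baf53a transgene is shut off by tetracycline (Tet). Either Baf53a or its neuronal homologue Baf53b was supplied from a transfected vector. Tet at 1 μg/mL followed 48 h later and was kept on for 6 days, with LIF in the medium. Baf53a-expressing and Baf53b-expressing Baf53a-deficient ES cells were each hybridised to 1 array, so no difference between them has a replicate check and no test was run. Both groups carry the same disrupted alleles, transgene and Tet treatment, and no untransfected or wild-type cells were analysed here. All 12 ES cell markers examined, among them Pou5f1, Nanog and Sox2, were well above background on both arrays.

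The Zscan4 genes lie in 1 cluster on chromosome 7 with 9 Zscan4 genes, of which 4 are annotated as protein coding and 3 have a probe named here (Zscan4c, Zscan4f and the transcribed pseudogene Zscan4a). Stretches of their promoters are shown because the copies are much alike there. These bases lie before the start of the gene, so they do not show whether a probe for one copy takes up transcripts of another. Each stretch holds 110 bases and ends 11 to 45 bases before the start of the gene, from RefSeq on build GRCm38.p6, and the capitals mark the letters TATAAAAG.
Zscan4c (chr7:11005601-11005710, plus strand): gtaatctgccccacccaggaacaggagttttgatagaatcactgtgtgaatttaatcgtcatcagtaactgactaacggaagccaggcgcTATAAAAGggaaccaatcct
Zscan4f (chr7:11397794-11397903, plus strand): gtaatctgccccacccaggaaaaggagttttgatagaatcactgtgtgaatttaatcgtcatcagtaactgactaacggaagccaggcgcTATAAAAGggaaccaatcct
Zscan4d (chr7:11166194-11166303, minus strand): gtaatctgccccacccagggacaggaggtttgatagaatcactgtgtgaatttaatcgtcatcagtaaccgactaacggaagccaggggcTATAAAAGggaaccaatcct
Zscan4b (chr7:10905062-10905171, minus strand): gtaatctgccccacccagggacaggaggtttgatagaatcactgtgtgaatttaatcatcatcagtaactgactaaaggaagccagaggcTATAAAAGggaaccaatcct
Over these 110 bases Zscan4c and Zscan4f differed at 1 base (99.1% identity) and Zscan4c and Zscan4d at 4 (96.4%). The least alike pair, Zscan4b and Zscan4f, differed at 7 bases (93.6%). All 4 windows held TATAAAAG, letters chosen after the sequences were seen, against 1.7% of all 32851 promoter windows of 300 bases, on either strand.

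Zfp352 and Sp110 had promoters of another kind, and 130 bases before the start of each are shown because they share a repeated run. The capitals mark AACACACCTTTAATC and ATATAAGG, both chosen after the sequences were seen.
Zfp352 (chr4:90218690-90218819, plus strand): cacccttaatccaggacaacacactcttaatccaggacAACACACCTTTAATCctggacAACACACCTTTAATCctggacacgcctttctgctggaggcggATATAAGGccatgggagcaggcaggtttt
Sp110 (chr1:85603892-85604021, minus strand): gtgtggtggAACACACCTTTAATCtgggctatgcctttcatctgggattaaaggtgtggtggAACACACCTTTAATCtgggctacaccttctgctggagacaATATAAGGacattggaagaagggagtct
AACACACCTTTAATC was the longest run that these promoters of Zfp352 and Sp110 shared on the same strand, at 15 bases, and each 300-base window held it 3 times. It was present in 23 of all 32851 windows, or 0.07%, on either strand. ATATAAGG stood in 0.776% of all windows. Sp110 has another window in the table, without either run. The motif of Dux and the letters TGCACAC were also looked for on both strands. They stood in 0.0335% and 4.4% of all windows and in none of the windows of the 5 genes that have one, which says only that these letters are not in these windows.

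In Baf53b-expressing cells the genes of the 2-cell-like state lay slightly above their level in Baf53a-expressing cells. All 12 probes were well above background on both arrays. Tcstv1 differed most, at 1.21-fold, and Zscan4f least, at 1.02-fold. Of the 7 genes measured, 7 were higher with Baf53b and 0 lower, where 49.1% of all 16608 genes measured on both arrays were higher and 50.9% lower. Of the 12 probes, 11 were higher and 1 was lower, where 49.7% of all 29247 probes measured on both arrays were higher and 50.3% lower. The median log2 difference, Baf53b- minus Baf53a-expressing cells, was 0.14 for the 7 genes and -0.0032 for all genes. None of the 7 genes and none of the 12 probes was at least 2-fold apart, and the share at least 2-fold apart was 0.193% of all genes and 0.253% of all probes. With each array centred on its median, 6 of the 7 were higher, their median was 0.0918 and Zscan4f stood at -0.03. Of all genes, 35.6% were higher under that centring, and the median of all genes was -0.0543. With the brightest probe taken for each gene, 6 were higher, the median was 0.0852 and Sp110 stood at -0.07, where 46.4% of all genes were higher. In these cultures, more cells in the 2-cell-like state and more RNA per such cell with Baf53b cannot be told apart, nor can either be told from a difference between the 2 single arrays. Markers of primitive endoderm and trophoblast, given further on, had medians of 0.27 and 0.19.

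**Figure D1:**
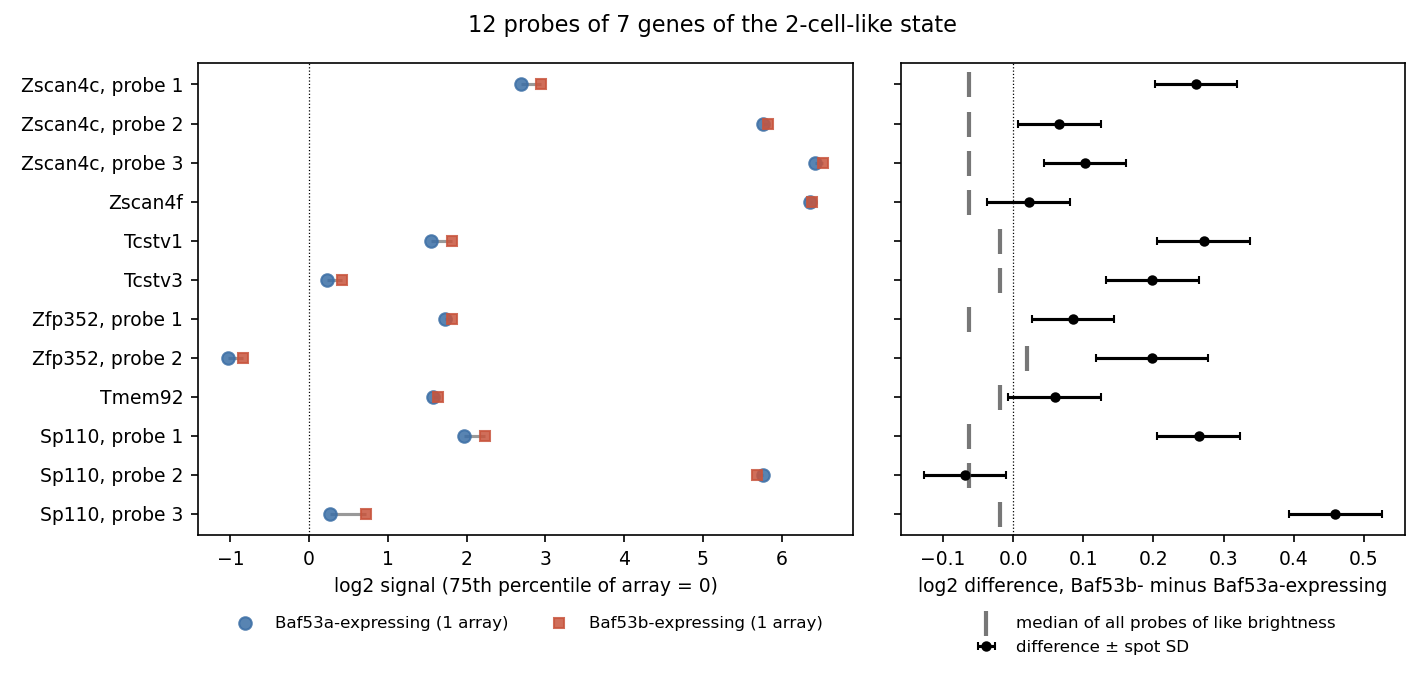
Left, log2 signal of each of the 12 probes (75th percentile of the array set to 0) on the array of Baf53a-expressing cells (circles) and of Baf53b-expressing cells (squares). Right, log2 difference with the SD between spots of like brightness as bars, and the median of all probes of like brightness as grey marks; 11 of the 12 probes lie above 0 and 1 of Sp110 lies below it.

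Zscan4c, which encodes a SCAN domain and zinc finger protein known for its part in telomere maintenance and genome stability of ES cells, had 3 probes. The processed signal, which is the brightness of a spot after background subtraction, was 7476 with Baf53a and 8701 with Baf53b at the first probe, 63066 and 64109 at the second, and 100044 and 104340 at the third. With each array scaled to its 75th percentile, the log2 differences were 0.26, 0.07 and 0.10. All 3 were higher in Baf53b-expressing cells, and the mean over them was 0.14. The first probe stood apart from the other two: 1.81% of the probes of like brightness had a larger difference, against 10.8% and 6.68% for the other two.

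Zscan4f, a near-identical copy, had 1 probe, with a signal of 95324 with Baf53a and 94006 with Baf53b. The raw signal was thus lower in Baf53b-expressing cells, and the log2 difference after scaling was 0.02. This difference is smaller than 0.059, the SD that the spots of a probe gave for a difference between arrays in the brightest of 5 groups of equal size. Cyclic loess, quantile normalization and normexp gave 0.0933, 0.0859 and 0.10, above that SD. Zscan4a had 88514 and 89363 at one probe and 56363 and 59575 at the other, with log2 differences of 0.06 and 0.12. The bright Zscan4 probes thus lay between 0.02 and 0.12, and the dimmer Zscan4c probe at 0.26. Which copies each probe takes up was not examined, since the probe sequences were not used here.

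Tcstv1 and Tcstv3 are both on chromosome 13, with 26 genes between them, and are 2-cell-stage genes of a group named as variable at that stage. Tcstv1 had a signal of 3386 with Baf53a and 3971 with Baf53b, a log2 difference of 0.27. Tcstv3 had 1355 and 1511, a log2 difference of 0.20. Both differences were larger than 0.0664, the spot SD of a difference in their group of brightness. In that group 2.55% and 4.98% of all probes had a larger difference. They belong to 1 family, and whether their probes share signal was not tested.

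Zfp352 encodes a zinc finger protein first known from the 2-cell embryo. Its first probe had a signal of 3854 with Baf53a and 3971 with Baf53b, and its second 566 and 630. Both were higher in Baf53b-expressing cells, with log2 differences of 0.09 and 0.20. The difference of the second lay above 0.0799, the spot SD of its group, but 11.1% of the probes of that group had a larger one. Tmem92, a transmembrane protein gene, had 3450 and 3491, a log2 difference of 0.06. This lay below the spot SD of 0.0664, as did the 0.00800 with arrays centred on the median, while cyclic loess, quantile normalization and normexp gave 0.0980, 0.0969 and 0.0812, above it.

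Sp110 encodes a chromatin-binding nuclear body protein of the Sp100 family, which interferon also induces. Its 3 probes did not all differ in 1 direction. Signals were 4537 with Baf53a and 5293 with Baf53b at the first, 62971 and 58311 at the second, and 1392 and 1859 at the third. The log2 differences were 0.26, -0.07 and 0.46, so that the first and the third were higher and the second lower in Baf53b-expressing cells. The third had the largest difference of all 12 probes, 1.37-fold, and 0.256% of the probes of like brightness had a larger one. The gene model of Sp110 overlaps that of its relative Sp140 on chromosome 1, and Sp140 had log2 differences of 0.28 to 0.41 at its 3 probes. The probes of Sp110 carry the same accession in the files, so which transcript each reads cannot be told apart here.

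The differences between the arrays depended on brightness, and the 12 probes were bright. From the dimmest to the brightest of 5 groups of equal size, the share of all probes higher with Baf53b ran 64.6%, 61.4%, 55.5%, 42.6% and 24.2%. In the brightest group, where 24.2% of all probes were higher, 6 of 7 probes of the 2-cell-like state genes were higher. In the next group, with 42.6%, 4 of 4 were higher, and in the middle group, with 55.5%, 1 of 1. The median difference was -0.06 in the brightest group and -0.02 in the next. Set against these medians, 11 of the 12 probes lay above the probes of like brightness, from 0.0784 on the log2 scale for Tmem92 to 0.479 for the third probe of Sp110. Several of the 12 probes belong to the same gene or to near copies and are not independent measures. In size, 10 of the 12 differences were larger than the spot SD of their group, and 6 were larger than the SD of all differences in it. The share of all probes past these limits was not counted, so neither count can be read as a result about these probes. In the 2 brightest groups the SD of all differences was 0.108 and 0.124, above the spot SDs of 0.0590 and 0.0664. Passing the spot SD therefore does not set these probes apart.

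**Figure D2:**
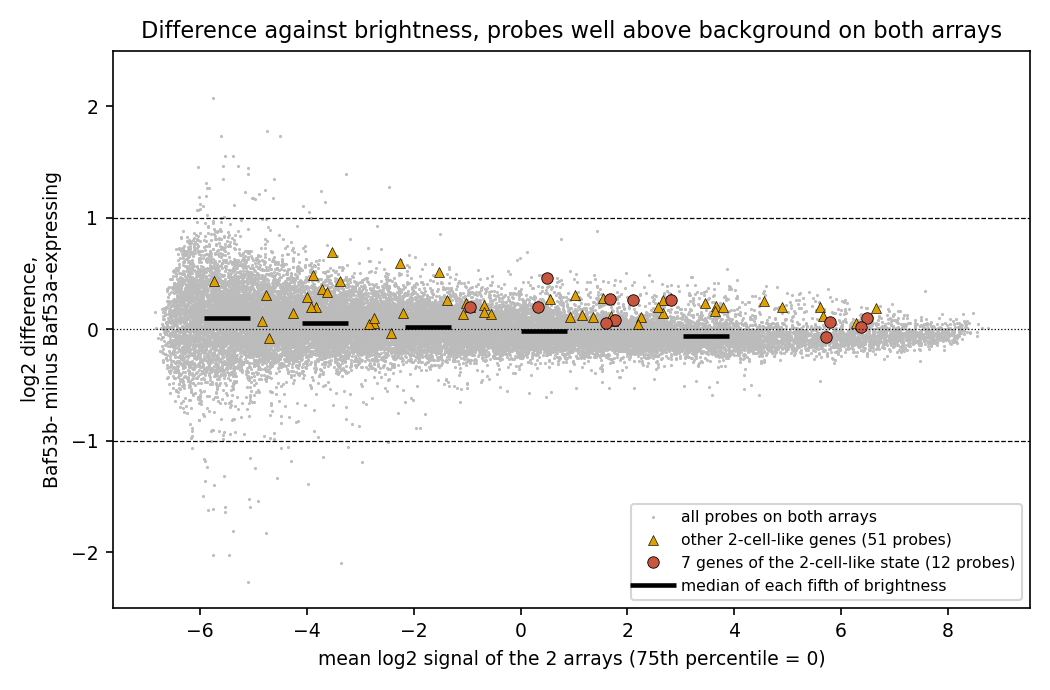
Log2 difference (Baf53b- minus Baf53a-expressing cells) against mean log2 signal for 29247 probes measured on both arrays (grey), with the 12 probes of the 2-cell-like state genes (circles), 51 probes of other 2-cell-like genes (triangles), group medians (black bars) and 2-fold lines (dashed). The circles and triangles lie mostly above the black bars, and none reaches 2-fold.

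Other genes of the 2-cell embryo and of 2-cell-like cells were listed from general knowledge. Earlier results of these data were known by then, so this list is not an independent check. Of 44 such genes, 33 had a probe and 31 were measured on both arrays. Of these, 30 were higher with Baf53b and 1 was lower, against 49.1% of all genes higher. Their median log2 difference was 0.20, or 1.15-fold, and 0 were at least 2-fold apart, against 0.193% of all genes. The largest differences were those of Tdpoz4 (0.59), Tdpoz2 (0.52) and Obox1 (0.46). Tdpoz4, a TRAF and POZ domain gene, had a signal of 197 with Baf53a and 289 with Baf53b. Tdpoz2 had 338 and 469. Obox1, an oocyte-specific homeobox gene, had 95.3 and 125 at one probe and 66.4 and 90.4 at the other. Trim43b, a tripartite motif gene, was the 1 gene with a lower value, at -0.03. Ubtfl1 and Obox5 were not well above background on either array. With no filter on dim probes, and with a weaker detection flag, these 2 entered the list. Of 33 genes, 30 were then higher, 3 were lower and 1, Obox5, was at least 2-fold apart, at 1.48. Under these settings 1337 of all 39411 and 754 of all 33611 probes were at least 2-fold apart.

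These genes were described by family as well, grouped by their names, since near copies may share signal. All 5 Usp17l genes, which encode deubiquitinases, were higher, with log2 differences of 0.07 to 0.23. All 4 Tdpoz genes measured were higher, with 0.11 to 0.59, and all 3 Obox genes measured, with 0.14 to 0.46. Of the Obox3 probes well above background on both arrays, one gave -0.08 and the other 0.36, and another Obox3 probe, not in the gene's value, was well above background with Baf53a only (16.2 against 10.4, at least 1.51-fold lower with Baf53b). The Trim43 genes were split, with Trim43c at 0.20. BB287469 and Gm2022, which are like the translation initiation factor eIF1A, stood at 0.26 and 0.22. From the dimmest to the brightest group, 3 of 4, 12 of 12, 7 of 8, 10 of 10 and 17 of 17 probes of these genes were higher, where 64.6%, 61.4%, 55.5%, 42.6% and 24.2% of all probes were.

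Of 10 known activators of the state that were listed, 7 had a probe and all 7 were measured, with 2 higher and 5 lower with Baf53b and a median log2 difference of -0.07, against 49.1% of all genes higher. That median was -0.12 with arrays centred on the median, where the median of all genes was -0.0543. It was -0.0311, -0.0400 and -0.0225 under cyclic loess, quantile normalization and normexp. Most of their probes were in the 2 brightest groups, where 42.6% and 24.2% of all probes were higher, and against the medians of their groups they ran from -0.228 for a Dppa4 probe to 0.311 for Gata3, with Tbx3 and Gata2 close to 0. Duxf3, the mouse Dux gene of the reference, had no probe, so its level has no value here. Dppa2 and Dppa4, which activate Dux, stood at -0.14 and -0.11. Dppa4 had -0.21 at a dim probe (258 with Baf53a and 217 with Baf53b) and -0.05 and -0.07 at its brighter probes. Those brighter probes lay only -0.0334 and -0.0103 from the medians of their groups. Dppa2 had signals of 3166 with Baf53a and 2704 with Baf53b at one probe and 19585 and 17767 at the other, so both were lower in Baf53b-expressing cells. Against the medians of their groups these Dppa2 probes lay at -0.167 and -0.0355. Trp53, which encodes p53, was the lowest at -0.22, and Gata3 the highest at 0.33. Nelfa, a subunit of negative elongation factor, stood at 0.06.

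The factors that restrain the state had a median close to 0. All 26 listed were measured, with 11 higher and 15 lower with Baf53b, against 49.1% of all genes higher, and most of their probes were in the 2 brightest groups, where 42.6% and 24.2% of all probes were higher. The counts turned to 5 higher and 21 lower with arrays centred on the median and to 15 higher and 11 lower under quantile normalization and cyclic loess, and to 14 and 12 under normexp. Of all genes, 35.6% were higher with that centring, and 46.9%, 48.3% and 46.6% under quantile normalization, cyclic loess and normexp. The median of the 26 minus that of all genes was -0.0083 with and without centring on the median. Of these genes L3mbtl2 alone differed by 0.2 or more in log2, and the share of all genes that did was not counted. In the 2 brightest groups, which hold most of these probes, the SD of all differences was only 0.108 and 0.124. Without that share, this count cannot be read as particular to these factors. The median of the 26 was -0.01, which changed sign under cyclic loess (0.03), quantile normalization (0.02) and normexp (0.01). Trim28, a corepressor of retroelements, stood at -0.01, the demethylase Kdm1a at -0.06 and the chromatin assembly factor subunits Chaf1a and Chaf1b at -0.06 and -0.11. Kat5 and Ep400, the catalytic subunits of the TIP60-p400 complex, stood at 0.02 and 0.08. L3mbtl2, a subunit of a Polycomb-related repressor complex, stood at 0.34, from 1 probe with a signal of 732 with Baf53a and 902 with Baf53b. Rif1 and Zmym2 stood at 0.11 each, and Lin28a and Zfp42 were the lowest beside Chaf1b, at -0.15 and -0.11.

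**Figure D3:**
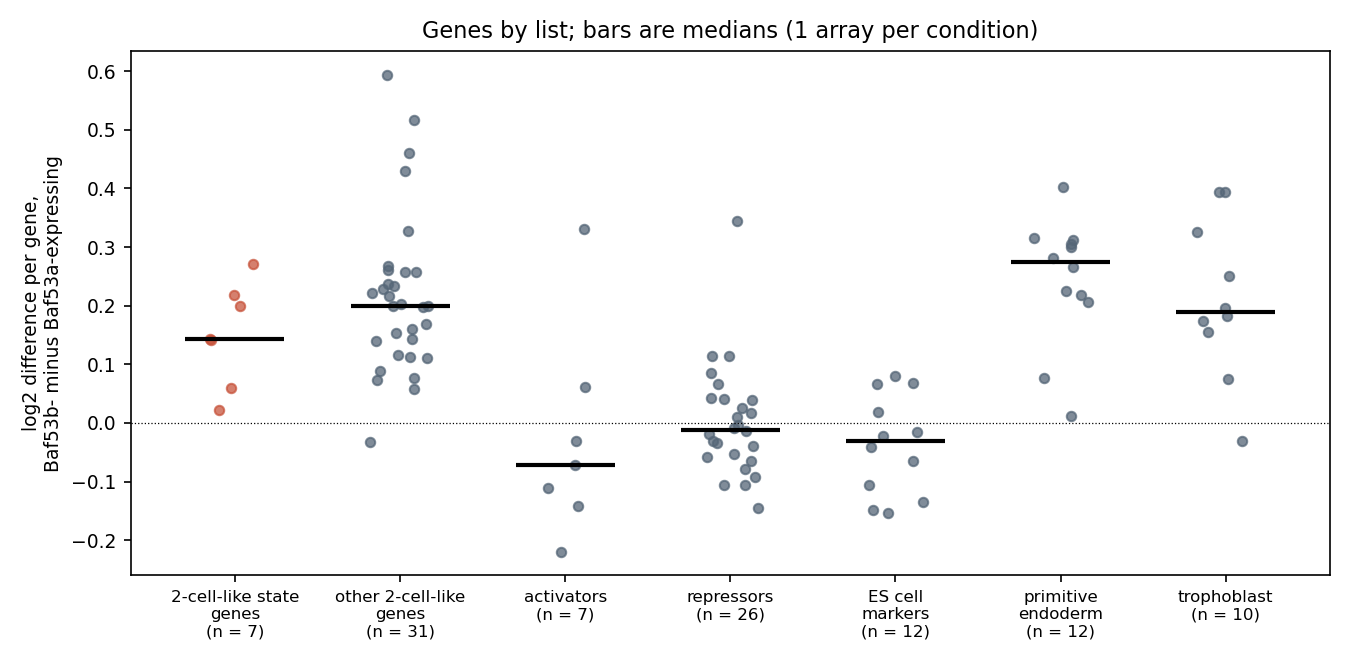
Log2 difference of each gene measured on both arrays (points, Baf53b- minus Baf53a-expressing cells), by list, with the median of each list as a bar and the number of genes under its name. The medians are 0.14 for the 2-cell-like state genes, 0.20 for the other 2-cell-like genes, -0.07 for activators, -0.01 for repressors, -0.03 for ES cell markers, 0.27 for primitive endoderm and 0.19 for trophoblast.

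Markers of other cell types were mostly higher as well. All 12 primitive endoderm markers were measured and 12 were higher with Baf53b (11 with arrays centred on the median), against 49.1% of all genes higher (35.6% with that centring). Their probes lay in the 4 brighter groups, where 61.4%, 55.5%, 42.6% and 24.2% of all probes were higher, and their median log2 difference was 0.27. The highest were Dab2 (0.40), Pdgfra (0.32) and Foxa2 (0.31). Their signals summed to 73610 with Baf53a and 80494 with Baf53b, with Sparc, which stood at 0.01, the brightest of them. Of 12 trophoblast markers, 10 were measured, 9 higher and 1 lower, against 49.1% of all genes higher, with probes in all 5 groups of brightness. Their median was 0.19, with the highest values for Krt7 (0.39), Plac1 (0.39) and Krt18 (0.32). Prl3d1 stood at -0.03. Their signals, each the mean on the log2 scale over the probes of a gene, summed to 54143 and 63450. Most of this was Krt18 (38957 and 47401), while the probes of Gcm1 ran from 30.4 and 22.5 to 133383 and 151428, so that its mean and the sum depend on how probes are averaged. The defining markers Elf5 and Tpbpa were not well above background on either array. The part of such cells in the differences of the 2-cell-like genes was not tested.

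ES cell markers lay close to 0. Of 12 measured, 4 were higher and 8 lower with Baf53b, against 49.1% of all genes higher, and most of their probes were in the brightest group, where 24.2% of all probes were higher. Their median log2 difference was -0.03, and it changed sign under cyclic loess, quantile normalization and normexp, each with 7 higher and 5 lower. With arrays centred on the median 3 were higher and 9 lower, where 35.6% of all genes were higher. Pou5f1, which encodes Oct3/4, had a signal of 27167 with Baf53a and 24042 with Baf53b, a log2 difference of -0.13, and Nanog stood at -0.07. Esrrb (-0.15) and Utf1 (-0.15) were the lowest, and Fbxo15 (0.08), Sox2 (0.07) and Dax1 (Nr0b1, 0.07) the highest.

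**Figure D4:**
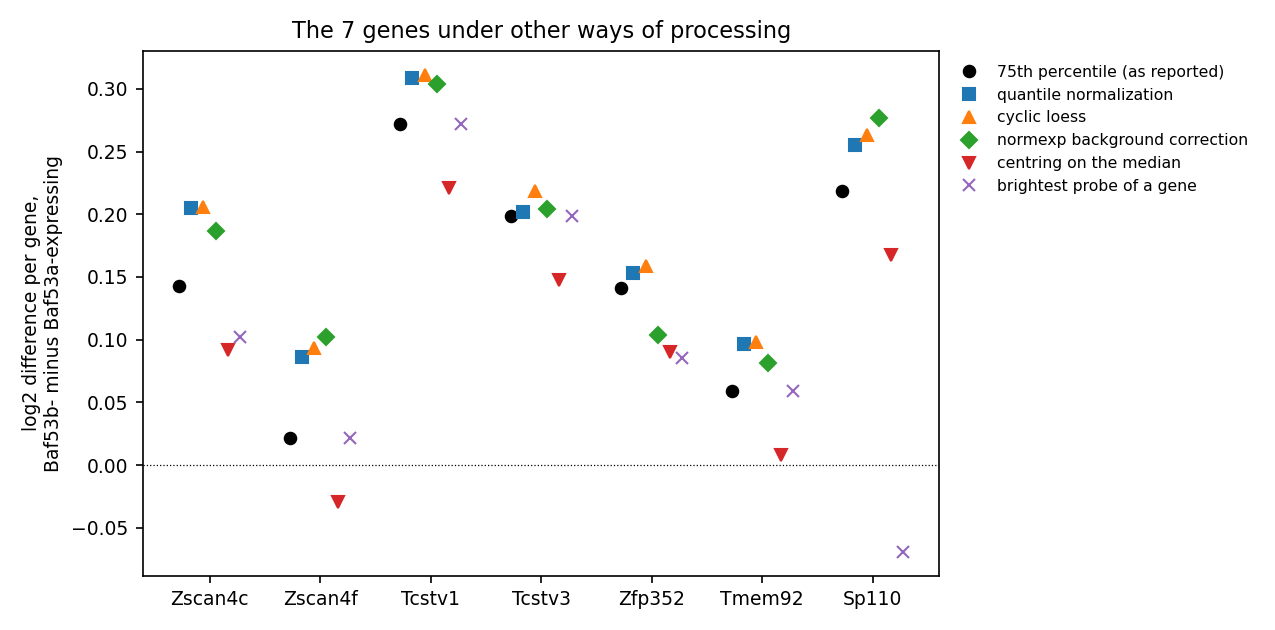
Log2 difference of each of the 7 genes (Baf53b- minus Baf53a-expressing cells) as reported (black circles) and under 5 other ways of processing the same arrays. Tcstv1 and Tcstv3 lie above 0 in every one shown, Zscan4f falls to -0.03 with arrays centred on the median, and Sp110 falls to -0.07 when its brightest probe stands for the gene.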

How the data were processed

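Total RNA of 2 samples was labelled with Cy3 and hybridised to mouse 4 × 44K arrays. Images were read with Agilent Feature Extraction 11.0.1.1, per the submitters' processing notes. The authors deposited spot intensities that were background-subtracted and detrended but not scaled between arrays; the array design uses mm9. A value table, deposited beside them, holds a ratio per probe. Each of its 30479 values compared per array equalled the processed signal divided by 1 number per array (1160 and 1126) within 0.1%.

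Control and outlier spots were left out, log2 intensities were averaged per probe, and the 75th percentile (signals of 1161 and 1128) was set to 0. Well above background means that the flag of that name was set in 50% or more of a probe's spots; the lowest such signals were 8.45 and 9.75. A gene's value is the mean over its probes well above background on both arrays. Names came from RefSeq accessions (27410 probes, assembly GRCm38.p6). Spot SDs came from probes with at least 5 spots, cover spot noise only, and the number of arrays limits the precision.

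The members and lists were chosen with earlier results of these data known. Named were all members, other Zscan4 genes, up to 3 genes per list and direction, and fixed defining genes; family examples, the brightest markers, Kat5 and Ep400 were added after their values were seen. With 2 arrays every pair of probes correlates at 1 or -1, so no gene is named for likeness of pattern. Alternatives were other normalizations, filters, flags and probe rules, the value table, and normexp (offset 50) on the median signal. Python 3.11.15, R 4.3.3 and limma 3.58.1 were used. A few listed genes are left out of the text. The steps were tested on simulated data, with planted changes scored at the 2-fold limit. That test does not cover differences as small as those reported here.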

Additional observations from a re-analysis of the deposited data

How the results depend on the processing

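No paired analysis was possible because each condition had a single array, which also leaves no replicate to omit. Over 10 alternatives, 0 of the 7 genes was at least 2-fold apart and 6 or 7 were higher in Baf53b-expressing cells. The share of all genes higher ran from 35.6% with median centring to 50.5% with the weaker flag. In 33 comparisons a value moved by more than its spot error, which is the spot SD scaled down for the probes averaged in a gene or for the genes in a list. Centring on the median gave 0.0918 for the median of the 7 genes, 0.15 for the wider list of 2-cell-like genes, -0.12 for activators, -0.0626 for repressors, 0.17 for Sp110, 0.0904 for Zfp352 and 0.0918 for Zscan4c. Cyclic loess gave 0.21, 0.21, -0.0311 and 0.0283 for these 4 medians, 0.26 for Sp110, 0.21 for Zscan4c and 0.0933 for Zscan4f. Quantile normalization gave 0.20, 0.21, -0.0400 and 0.0242 for the medians, 0.26 for Sp110, 0.20 for Zscan4c and 0.0859 for Zscan4f. Normexp gave 0.19, 0.15, -0.0225 and 0.0124 for the medians, 0.28 for Sp110, 0.19 for Zscan4c and 0.10 for Zscan4f. The brightest probe of a gene gave 0.0852 for the median of the 7 genes, -0.0346 for repressors, -0.0690 for Sp110, 0.0852 for Zfp352 and 0.10 for Zscan4c. Centring on the median shifted every gene alike, and the median of all genes went from -0.0032 to -0.0543. The median of the 7 genes minus that of all genes was 0.146 with and without it. For the other scalings the cause was not tested, and the last follows from which probe enters. Filters on dim probes, the weaker flag, outlier spots and the authors' value table moved no value of the 7 genes by more than this error. The number of arrays limits the precision.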

Other observations

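Sp110 is also induced by interferon, and 10 of its relatives and other interferon-inducible genes were listed. Of these, 6 were measured on both arrays, 4 higher with Baf53b and 2 lower (3 and 3 under quantile normalization, cyclic loess and normexp), against 49.1% of all genes higher (46.9%, 48.3% and 46.6%). Their probes lay in all 5 groups of brightness. Those of Sp100, Usp18 and Oasl2 were in the dimmest, where 64.6% of all probes were higher. The median log2 difference was 0.07, and between 0.0108 and 0.0265 under cyclic loess, quantile normalization, median centring and normexp. Sp140 was the highest at 0.32, followed by the interferon-induced protease Usp18 at 0.13 and the ubiquitin-like modifier Isg15 at 0.09. Oasl2 was the lowest at -0.50, with signals of 32.9 with Baf53a and 22.6 with Baf53b, and Oas1a stood at -0.01. Ifit1, Ifit3 and Irf7 were not well above background on either array.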
